A study of Arabidopsis thaliana with 64 samples.

Results

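Transcripts of 10 seed genes, 4 oleosins, 3 cruciferins and 3 2S albumins, were followed across 64 RNA-Seq libraries of Arabidopsis thaliana seedlings. The oleosins were OLEO1 (AT4G25140), OLEO2 (AT5G40420), OLEO3 (AT5G51210) and OLEO4 (AT3G27660), the cruciferins CRA1 (AT5G44120), CRU2 (AT1G03880) and CRU3 (AT4G28520), and the albumins SESA1 (AT4G27140), SESA3 (AT4G27160) and SESA4 (AT4G27170). They are 10 of 32833 genes in the count tables and were taken by gene name and locus. In all lines 1 of 4 transcription factors (TFs), CHA19, ENAP1, LBD16 or WRI3, was fused to the glucocorticoid receptor (GR) and driven by the constitutive 35S promoter in the Col-0 background, so that dexamethasone (Dex) lets the fusion enter the nucleus. Each GR-TF had 4 independent T3 insertion lines, namely lines 5, 7, 8 and 9 of GR-CHA19, lines 1, 2, 4 and 5 of GR-ENAP1, lines 3, 8, 11 and 12 of GR-LBD16 and lines 8, 10, 17 and 21 of GR-WRI3. Seedlings were grown in the dark for 5 days, moved to 10 µM Dex or mock plates and collected whole after 24 h, with 2 replicates of pooled seedlings per line and treatment. All lines carried a GR-TF, and a response to Dex alone therefore cannot be told apart from one to the TF. The transformed plasmid of every line carries OLEO1 joined to a red fluorescent protein under the OLEO1 promoter as a seed marker, so reads from the native gene and from the marker cannot be told apart.

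Oleosins are small proteins that coat the oil bodies of seeds and keep them from fusing. Cruciferins, the 12S globulins, and the 2S albumins are the main storage proteins of the Arabidopsis seed and are kept in protein storage vacuoles. The genes of all 3 families are switched on during seed maturation by regulators that include ABI3, FUS3 and LEC2, and their products are broken down after germination to feed the seedling. Seedlings that have left the seed stage are known for low levels of these transcripts.

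The sequence upstream of these genes is shown first because seed regulators of the B3 type, such as ABI3, are known to recognise the RY core and bZIP factors the G-box. Both strands were searched over 250 bases before each annotated start for CATGCA (the RY core), CACGTG (the G-box) and ACGT (the core inside the G-box). The RY core was present in 9 of the 10 promoters against 8.43% of 27443 promoters of the same length, the G-box in 5 of 10 against 6.49%, and ACGT in 6 of 10 against 44.1%. The AW-box, the element known for WRI1, the relative of WRI3, was matched in 0 of 10 promoters and in 9.3% of all. The 5 promoters below show the pairing of both elements in OLEO1, OLEO3 and SESA3, the RY core alone in CRA1, and CRU2, where neither was matched. They give the 200 bases before the start in RefSeq's TAIR10.1, 5′ to 3′ on the strand of the gene, with RY cores and G-boxes in capitals. They lie at chr4:12900230-12900429 on the plus strand (OLEO1), chr5:20819868-20820067 plus (OLEO3), chr5:17758337-17758536 minus (CRA1), chr4:13611596-13611795 plus (SESA3) and chr1:985551-985750 plus (CRU2).
OLEO1: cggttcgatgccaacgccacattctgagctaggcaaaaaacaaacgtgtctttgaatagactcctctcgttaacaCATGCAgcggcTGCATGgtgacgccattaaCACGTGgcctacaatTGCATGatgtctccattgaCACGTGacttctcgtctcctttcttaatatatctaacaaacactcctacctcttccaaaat
OLEO3: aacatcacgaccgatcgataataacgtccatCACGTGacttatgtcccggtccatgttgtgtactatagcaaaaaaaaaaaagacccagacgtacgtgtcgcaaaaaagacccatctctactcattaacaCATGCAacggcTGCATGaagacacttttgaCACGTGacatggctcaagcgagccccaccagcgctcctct
CRA1: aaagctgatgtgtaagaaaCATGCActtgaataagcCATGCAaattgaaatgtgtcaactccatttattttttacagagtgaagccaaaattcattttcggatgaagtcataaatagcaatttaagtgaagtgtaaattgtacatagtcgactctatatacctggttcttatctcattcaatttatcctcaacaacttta
SESA3: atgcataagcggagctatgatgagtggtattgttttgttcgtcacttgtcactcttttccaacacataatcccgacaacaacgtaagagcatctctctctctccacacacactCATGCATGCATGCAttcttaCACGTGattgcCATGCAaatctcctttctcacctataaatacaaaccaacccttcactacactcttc
CRU2: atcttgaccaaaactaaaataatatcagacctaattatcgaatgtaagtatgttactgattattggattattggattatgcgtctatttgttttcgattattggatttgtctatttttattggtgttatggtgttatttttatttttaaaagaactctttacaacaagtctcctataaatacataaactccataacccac
OLEO1 and OLEO3 share a pair of RY cores on opposite strands followed by a G-box, and SESA3 held 7 RY cores in the full 250 bases, some of them overlapping, the most of the 10. SESA4 held 6, CRU3 had 1, and the other 6 genes with a match had 2 or 3. These matches are letters in a window and say nothing of which factor was bound in the seedlings.

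In the RefSeq annotation each oleosin gene has 2 exons, CRA1 has 3, CRU2 and CRU3 have 4, and the albumin genes have 1. SESA1 (chr4:13607329-13608031), SESA3 (chr4:13611796-13612563) and SESA4 (chr4:13613596-13614283) lie in a row on the plus strand of chromosome 4. Their coding sequences are 80.6% to 85.2% identical, and SESA3 is 89.7% identical to SESA2 between them, but no window of 50 or 100 bases of these albumin genes was found elsewhere in the genome. CRA1 and CRU2 share 73.9% of their coding positions, OLEO2 and OLEO4 64.4%, and OLEO1 and OLEO3 60.9%. OLEO1 (chr4:12900430-12901577) overlaps AT4G25150 on the other strand by 44 bases and OLEO2 (chr5:16173340-16174783) overlaps AT5G40410 by 15, and the libraries did not keep the strand.

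The libraries held 2059928 to 7968970 counts, so that 3 counts, taken as the floor, correspond to 0.376 to 1.46 CPM (counts scaled to a common library total). Intervals and floors cover counting error only. By the profile of all tested genes other than these 10 and the lists used below, 8 libraries stood apart from the other 15 of their GR-TF. Their median correlation of log2 CPM with those 15 was 0.722 to 0.949, against 0.956 to 0.982 in the other 56. They were line 7 Dex replicate 1 and line 8 Dex replicate 1 of GR-CHA19, line 1 mock replicate 1 and line 2 Dex replicate 1 of GR-ENAP1, line 3 mock replicate 1 and line 12 mock replicate 2 of GR-LBD16, and line 8 Dex replicate 1 and line 10 Dex replicate 2 of GR-WRI3. Of markers for the labelled dark-grown seedlings, those of etiolated growth (PORA, PORB, HB-2, XTH15, IAA19 and HFR1) summed to 508 to 4855 CPM with a median of 1849. Those of light-grown seedlings (CAB1, RBCS1A and ELIP1) summed to 748 to 13624 CPM, with a median of 7460. CAB1 and RBCS1A made up nearly all of it, with medians of 5208 and 2144 CPM, while ELIP1 had a median of 1.91 CPM. Markers of the dry or ungerminated seed summed to 48.6 to 4134 CPM with a median of 126, over EM1, EM6, PER1, M17, TIP3;1, TIP3;2, DOG1, SOM and AT3G15670. SOM had the highest median of these, 69.0 CPM.

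Together the 10 genes had 27.2 CPM in the median library. The lowest sum was 6.95 CPM in GR-WRI3 line 21 Dex replicate 2 and the highest was 707 CPM in GR-LBD16 line 3 mock replicate 1. Without the 8 libraries that stood apart the range was 6.95 to 372 CPM, with a median of 22.8. GR-LBD16 had the highest median of its 16 libraries (115 CPM, from 12.8 to 707), and GR-WRI3 (26.03, from 6.95 to 361), GR-ENAP1 (21.5, from 10.5 to 144) and GR-CHA19 (20.8, from 8.13 to 343) had medians near each other. Sums over 100 CPM were found in 17 libraries, 9 of GR-LBD16, 5 of GR-WRI3, 2 of GR-ENAP1 and 1 of GR-CHA19. They included 9 Dex and 8 mock libraries, and 5 of the 17 were among those that stood apart.

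Replicates of the same line and treatment often differed. The ratio of the higher to the lower sum had a median of 1.75 over 32 pairs, was over 2 in 13 pairs and over 5 in 4. The widest pair was line 3 of GR-LBD16 with mock treatment, with 707 CPM in replicate 1 and 23.2 CPM in replicate 2. In line 8 of GR-CHA19 with mock treatment the sums were 343 and 19.3 CPM, and in line 8 of GR-LBD16 with Dex 320 and 49.6 CPM. The high values were present in both sequencing runs, since the sums of run 1 and run 2 of these 17 libraries had ratios of 0.902 to 1.22.

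**Figure D1:**
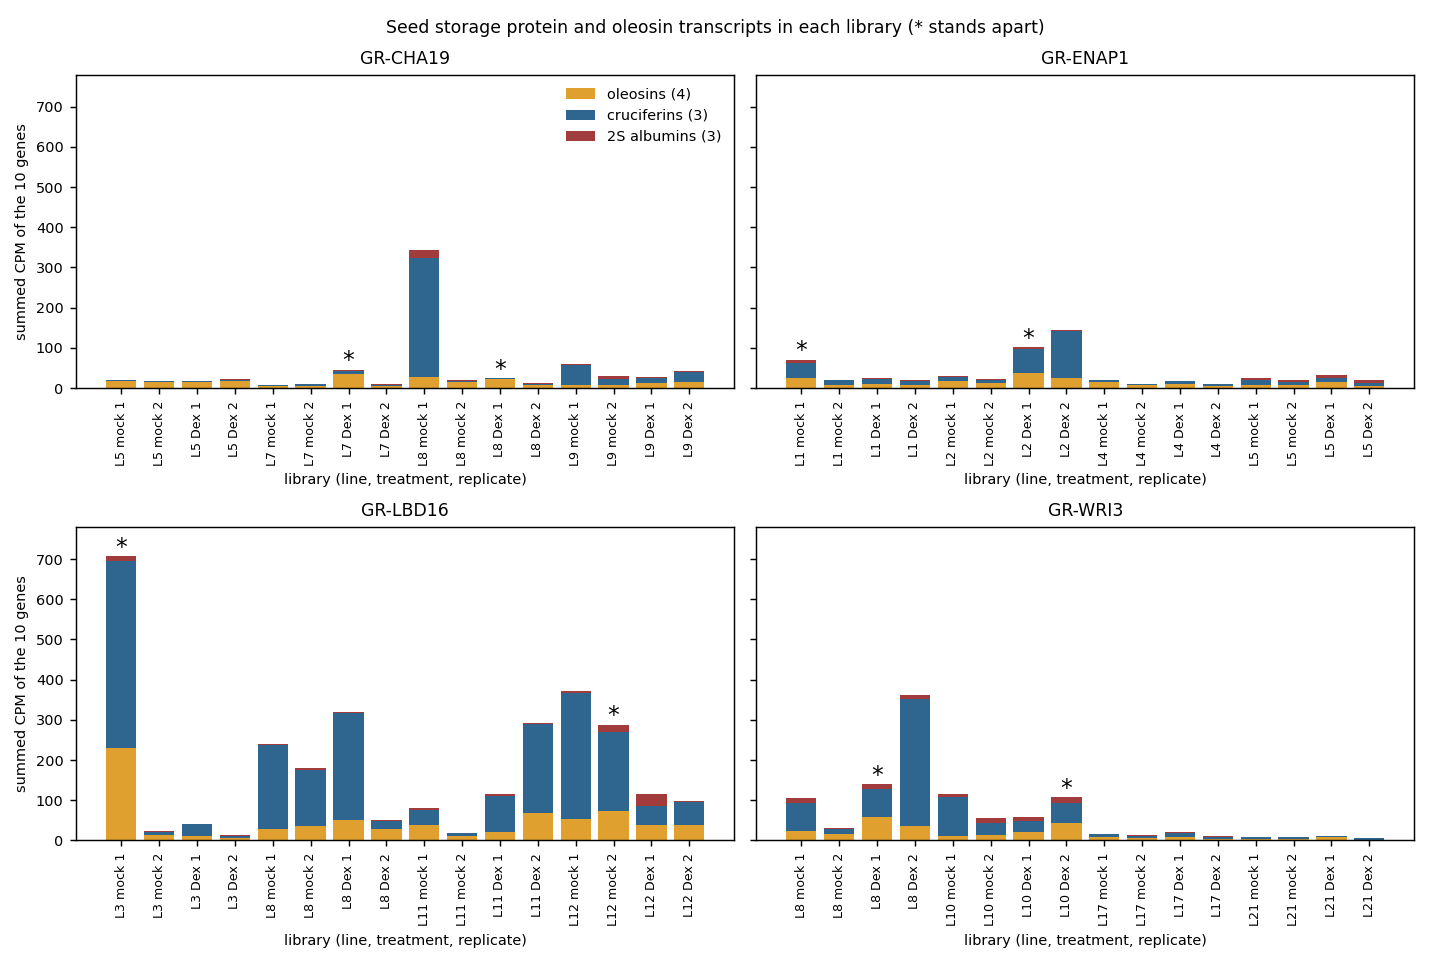
Summed CPM of the 4 oleosins, 3 cruciferins and 3 albumins (stacked bars, linear axis) in each of the 64 libraries, 1 panel per GR-TF, with libraries ordered by line, treatment and replicate and a star over those that stood apart. The tallest bar, GR-LBD16 line 3 mock replicate 1, reaches 707 CPM beside 23.2 CPM in its replicate, and lines 17 and 21 of GR-WRI3 stay at 20.7 CPM or below in all 8 libraries.

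Per kilobase of exon, OLEO3 had the highest median level over the 64 libraries (5.34 CPM per kb). OLEO1 (3.78), CRU3 (3.71), SESA3 (2.45), CRA1 (1.96), OLEO2 (1.92) and OLEO4 (1.03) followed, and SESA1 (0.415), CRU2 (0.134) and SESA4 (0) were lowest. Every neighbouring pair in this order had overlapping ranges, and the standard deviation over libraries was close to or above the mean for all 10 genes, so the order of neighbours was within the spread. Median counts per library were 34 for CRU3, 23.5 for OLEO3, 18.5 for CRA1, 16 for OLEO1, 10 for SESA3 and 8 for OLEO2 and OLEO4. The median library had 1 count each of SESA1 and CRU2 and none of SESA4, and 17, 19 and 37 libraries were at 0 for SESA1, CRU2 and SESA4. Differences in these genes were mostly not detectable at this depth.

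The genes differed in how far a single library could exceed the median. The highest CPM was 108 times the median for CRA1 and 106 times for OLEO2, both in GR-LBD16 line 3 mock replicate 1. It was 24.8 times for CRU3, 7.54 times for OLEO3 and 5.53 times for OLEO1. Different libraries held the highest values: GR-CHA19 line 8 mock replicate 1 for CRU2, CRU3 and SESA1, GR-LBD16 line 12 Dex replicate 1 for SESA3 and SESA4, GR-WRI3 line 10 Dex replicate 2 for OLEO3, and GR-WRI3 line 8 Dex replicate 1 for OLEO1.

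The library with the highest sum, GR-LBD16 line 3 mock replicate 1, also stood farthest apart, with a median correlation of 0.722. It had 395 CPM of CRA1, 189 CPM of OLEO2, 68.4 CPM of CRU3 and 24.2 CPM of OLEO4, but only 13.2 CPM of OLEO1 and 3.85 CPM of OLEO3. Its ungerminated seed markers summed to 4134 CPM, while those of the other 63 libraries lay between 48.6 and 872 CPM. DOG1 went the other way, at 0.964 CPM, below its median of 3.76 CPM. The other listed markers were each highest in this library, TIP3;2 only slightly (31.2 CPM beside 29.96 CPM in the next highest). M17, a late embryogenesis abundant protein, was at 1656 CPM and EM1, another such protein, at 444 CPM. ABI3, the B3 regulator of seed maturation, was at 274 CPM beside 47.0 CPM in the next highest library. Of other regulators, ABI4 and ABI5 were also highest there, as was LEC2 near the floor (0.642 CPM). The listed repressors were highest there too. PKL was at 187 CPM beside 161 CPM in the next highest library. VAL2 was at 55.9 beside 43.2 CPM and VAL1 at 93.9 beside 93.4 CPM. FUS3 and L1L (0.482 CPM each), LEC1, bZIP10 and WRI1 were not highest there. bZIP25 (61.3 CPM) and bZIP53 (56.5 CPM) were at their lowest of all libraries. BETA-VPE, the seed-type vacuolar processing enzyme that cleaves storage protein precursors, was at 229 CPM, and GAMMA-VPE, the vegetative type, at 35.8 CPM, the lowest of all libraries and below its median of 270 CPM. The etiolated markers summed to 508 CPM and the light-grown markers to 748 CPM, both the lowest of the 64. The part of developmental stage in these values was not tested, and in whole-seedling RNA more cells of a type and more RNA per cell cannot be told apart.

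The high sum of GR-CHA19 line 8 mock replicate 1 had another make-up. CRU3 was at 165 CPM, CRA1 at 121 CPM, SESA3 at 11.3 CPM, CRU2 at 10.6 CPM and SESA1 at 7.10 CPM, and cruciferins made up 86.4% of the sum. OLEO2 was at 12.9 CPM, 0.0784 times CRU3, where the ratio in GR-LBD16 line 3 mock replicate 1 was 2.76. Its seed markers summed to 239 CPM, and its profile did not stand apart. GR-WRI3 line 8 Dex replicate 2 resembled it, with 167 CPM of CRA1, 147 CPM of CRU3 and a ratio of OLEO2 to CRU3 of 0.0748. Other high libraries also held mostly cruciferins. In the libraries ranked 2 to 10 by their sum, cruciferins made up 68.1% to 87.6% and the ratio of OLEO2 to CRU3 was 0.0748 to 0.405. In GR-LBD16 line 12 Dex replicate 1 the albumins made up 24.9% of the sum, against 2.703% in the other Dex replicate, with 20.95 CPM of SESA3, 4.92 CPM of SESA4 and 2.78 CPM of SESA1, while CRA1 (17.96 CPM) and CRU3 (26.7 CPM) were below those of the other replicate or close to them (33.7 and 23.1 CPM).

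Across the 64 libraries the members fell into groups by how they varied together. These Spearman correlations are descriptions, since libraries share lines, treatments and the total to which CPM is scaled. CRA1 and CRU3 varied most alike (0.90 over 64 libraries, 0.88 over the 56 that did not stand apart), and OLEO2 followed both (0.83 with CRA1 and 0.80 with CRU3). OLEO1 varied less with the others, at 0.30 with OLEO2 and 0.20 with OLEO3 over all libraries, but at 0.77 and 0.80 within GR-WRI3. With OLEO2 and OLEO3 it was at 0.78 and 0.19 within GR-LBD16. The values were 0.10 and 0.09 within GR-ENAP1 and −0.29 and −0.22 within GR-CHA19. OLEO2 went with the ungerminated seed markers, at 0.73 over 64 libraries and 0.71 over 56, and 7 of the 8 libraries highest in OLEO2 were among the 8 highest in those markers. Within single GR-TFs this correlation was 0.93 in GR-LBD16, 0.77 in GR-ENAP1 and 0.72 in GR-WRI3 but −0.04 in GR-CHA19.

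OLEO3 varied more with the etiolated markers than the other oleosins did. Its correlation with their sum was 0.91 over 64 libraries and 0.90 over 56. OLEO2 was at 0.49 and 0.60, OLEO4 at 0.13 and 0.09 and OLEO1 at 0.12 and 0.04. With the light-grown markers OLEO3 was at 0.55 and 0.71, and the etiolated and light-grown sums were at 0.68 and 0.83 with each other. With the ungerminated seed markers OLEO3 was at 0.20 over 64 libraries, and from −0.77 in GR-CHA19 to 0.68 in GR-ENAP1. Within GR-TFs the correlation of OLEO3 with the etiolated markers was 0.98 in GR-WRI3, 0.86 in GR-LBD16, 0.85 in GR-ENAP1 and 0.66 in GR-CHA19. In GR-WRI3 OLEO1 was at 0.78, OLEO2 at 0.53 and OLEO4 at 0.52 with these markers. Of the 8 libraries with the most OLEO3, 7 stood apart. GR-WRI3 line 10 Dex replicate 2 had 30.9 CPM of OLEO3 and 4377 CPM of etiolated markers, and GR-CHA19 line 7 Dex replicate 1 had 30.03 and 4855 CPM. PORA and PORB, which reduce protochlorophyllide to chlorophyllide in light, and XTH15, a cell wall enzyme, had the highest means of these markers. The part of seedling stage in the level of OLEO3 was not tested.

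**Figure D2:**
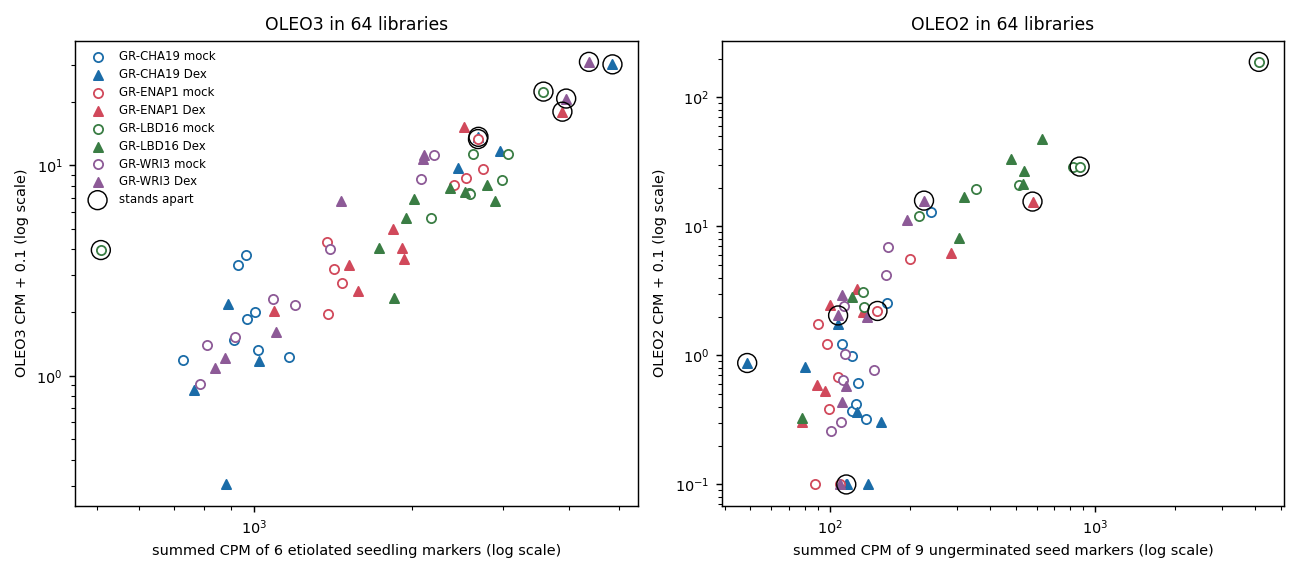
OLEO3 CPM against the summed CPM of 6 etiolated seedling markers (left) and OLEO2 CPM against the summed CPM of 9 ungerminated seed markers (right), 1 point per library on log axes with 0.1 added to the gene's CPM; colour gives the GR-TF, filled triangles are Dex, open circles mock, and black rings mark the 8 libraries that stood apart. OLEO3 climbs with the etiolated markers (Spearman 0.91) and most ringed points are at its top, while GR-LBD16 line 3 mock replicate 1 is alone at the upper right of the OLEO2 panel at 189 CPM.

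OLEO1 differed between the insertion lines of GR-CHA19. In line 5 it was at 12.5 and 15.05 CPM with Dex and at 13.8 and 10.4 CPM with mock treatment. In line 8 it was at 8.12 and 6.20 CPM with Dex and at 10.4 and 8.92 CPM with mock treatment. Both lines were above line 7 (3.71 and 2.94 CPM with Dex, 2.42 and 1.62 CPM with mock treatment) and line 9 (2.13 and 1.82 CPM, then 1.68 and 3.62 CPM), with no overlap in any treatment. By edgeR's quasi-likelihood F-test over the 4 lines, OLEO1 had a Benjamini-Hochberg adjusted p of 0.0077 and was the 1 gene called of 18272 tested (0.00547%). The other 6 tested members did not pass. The adjusted p of OLEO1 was 0.0234 with a replicate block and 2.01e-09 without the libraries that stood apart, where 4329 of 18367 genes were called, but leaving out single libraries ended the call in 5 of 16 cases (0.0501 to 0.0762, each of lines 5 or 9). OLEO1 made up 2.77% to 71.8% of the summed CPM of the members in GR-CHA19, with a median of 31.0%. Reads of the plasmid's marker cannot be told apart from those of the gene.

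In GR-WRI3, 7 of 8 tested members differed between lines, where 4.81% of 18311 genes did. The adjusted p was 0.0045 for OLEO1, 0.0050 for SESA3, 0.0114 for CRA1, 0.0137 for OLEO2, OLEO3 and CRU3, and 0.0196 for CRU2, all Benjamini-Hochberg adjusted values of edgeR's quasi-likelihood test. OLEO4 did not pass, at 0.119. CRU2 was near the floor, at 0 in all 4 libraries of line 21 and at most 0.475 CPM in line 17. It reached at most 2.08 CPM in line 8 and 2.72 CPM in line 10. OLEO1 was at 19.0 and 11.02 CPM with Dex and 6.25 and 3.64 CPM with mock treatment in line 8, and at 0.333 and 0.596 CPM and 0.746 and 0.678 CPM in line 21. Line 17 (2.64 and 1.11 CPM, then 3.32 and 3.32 CPM) and line 10 (3.96 and 8.20 CPM, then 3.34 and 5.45 CPM) lay between them on average. CRA1 was at 41.3 and 167 CPM with Dex and 27.6 and 4.19 CPM with mock treatment in line 8, and at 9.61, 22.9, 59.7 and 6.61 CPM in line 10. In lines 17 and 21 it was at 0.667 to 2.83 CPM in all 8 libraries, below every library of lines 8 and 10. SESA3, a 2S albumin, was at 3.46 CPM or above in all libraries of lines 8 and 10 and at 2.83 CPM or below in lines 17 and 21. Without the 2 libraries of GR-WRI3 that stood apart, the same 7 members passed among 1779 of 18504 genes. The seedling markers also differed between these lines, with etiolated markers at 1087 to 4377 CPM in lines 8 and 10 and 787 to 1466 CPM in lines 17 and 21, and light-grown markers at 4825 to 10975 and 3829 to 5645 CPM. Their part in the result was not tested. Leaving out line 17 Dex replicate 2 or line 17 mock replicate 2 left 2 members called (OLEO1 and SESA3), with 36 and 35 genes in all, and leaving out line 17 mock replicate 1 left 3.

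**Figure D3:**
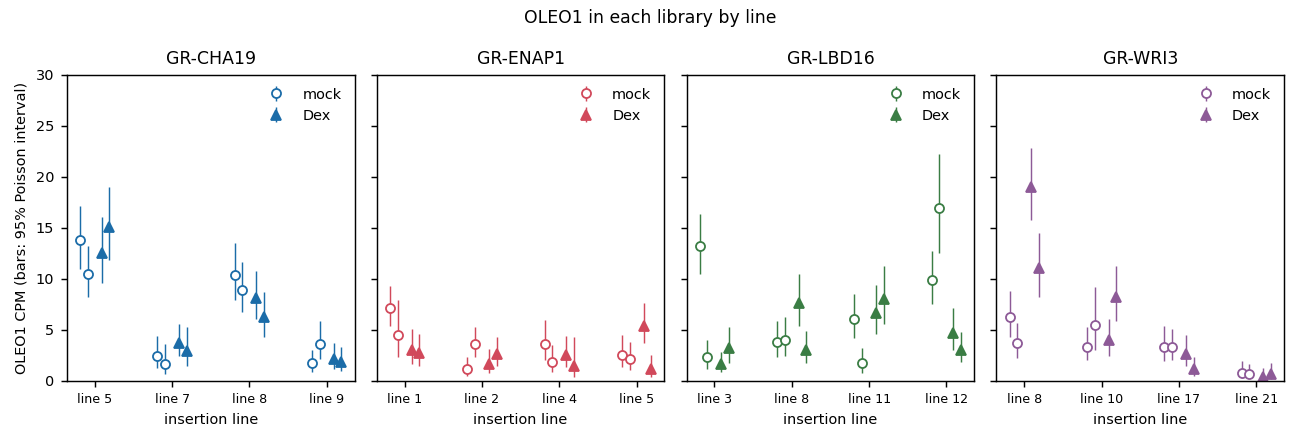
OLEO1 CPM in each library by insertion line, 1 panel per GR-TF (open circles mock, filled triangles Dex, bars the exact 95% Poisson interval of the count). Lines 5 and 8 of GR-CHA19 lie at 6.20 CPM or above and lines 7 and 9 at 3.71 CPM or below, and in GR-WRI3 line 21 is below 1 CPM in all 4 libraries.

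In GR-ENAP1 and GR-LBD16 no member passed the test between lines. In GR-ENAP1 edgeR called 7 of 18506 genes (0.0378%), CRA1 had the lowest adjusted p of the 7 tested members (0.0864), and OLEO3, CRA1, CRU3 and SESA3 had unadjusted p-values under 0.05. These same members passed without the libraries that stood apart and without either mock replicate of line 1, where more of all genes passed too. Each such fit leaves 1 library in a line and treatment, so it is not read as a result about the members. Line 2 with Dex held the highest values of CRA1, at 42.5 and 86.3 CPM. CRU3 was at 14.9 and 29.4 CPM there, but reached 26.4 CPM in line 1. The median of OLEO3 was highest in line 2 (12.3 CPM). SESA3 had medians of 5.04 CPM in line 5 and 1.32 CPM in line 2, so the 4 genes did not share 1 pattern. In GR-LBD16 edgeR called 6 of 18706 genes (0.0321%) and 0 of 9 members, and OLEO3 and SESA3 had unadjusted p-values under 0.05.

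The Dex comparison asks whether nuclear entry of each TF moved these genes. With the Dex effect averaged over the 4 lines, 0 of 7 members passed in GR-CHA19, 0 of 7 in GR-ENAP1, 0 of 9 in GR-LBD16 and 0 of 8 in GR-WRI3, by edgeR's quasi-likelihood test with an adjusted p threshold of 0.05. Of all genes tested, 0.0%, 0.0%, 0.0% and 0.0273% passed. Unadjusted p-values under 0.05 were found for 3, 1, 0 and 1 of the members and for 2560, 335, 1180 and 2836 of all genes. DESeq2 called 0 members in each GR-TF. The negative binomial regression of the study's methods (glm.nb) called 6 of 7 in GR-CHA19 with 5318 genes, 1 in GR-ENAP1 with 204, 1 in GR-LBD16 with 2300 and 5 of 8 in GR-WRI3 with 4483. CRU2, SESA1 and SESA4 were too low to be tested in GR-CHA19 and GR-ENAP1, SESA4 in GR-LBD16, and SESA1 and SESA4 in GR-WRI3.

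OLEO4 had the lowest unadjusted p of the members in GR-CHA19. It was at 0.169 to 1.43 CPM with Dex (median 0.491, n = 8 libraries) and 0.541 to 3.28 CPM with mock treatment (median 1.41), and the groups overlapped. The log2 fold change was −1.30 ± 0.40 (SE) with an adjusted p of 0.347 by edgeR, and line by line −0.18, −0.22, −2.35 and −2.46 in lines 5, 7, 8 and 9. OLEO2 had a log2 fold change of −2.60 ± 1.17 (adjusted p 0.356), CRA1 of −1.61 ± 1.02 (0.420) and CRU3 of −1.27 ± 0.80 (0.421). Without line 8 mock replicate 1 the log2 fold changes of CRA1 and CRU3 were −0.07 ± 0.65 and 0.01 ± 0.20, so both rested on that library, while OLEO2 stayed at −1.54 ± 0.66 (adjusted p 0.535). Both Dex libraries of line 8 had 0 counts of OLEO2, so its fitted values depend on the prior count. OLEO1 did not follow them, at −0.04 ± 0.18 (adjusted p 0.963).

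OLEO3 had values above 0 in GR-CHA19 and GR-WRI3. In GR-CHA19 it was at 0.205 to 30.03 CPM with Dex (median 5.83) and 1.09 to 3.67 CPM with mock treatment (median 1.57), with a log2 fold change of 1.63 ± 0.70 and an adjusted p of 0.352. Without the 2 libraries of GR-CHA19 that stood apart the value was −0.08 ± 0.38. In GR-WRI3 it was at 0.993 to 30.9 CPM with Dex (median 8.61) and 0.813 to 11.1 CPM with mock treatment (median 2.15), with a log2 fold change of 1.22 ± 0.38 and an adjusted p of 0.301. Without the libraries of GR-WRI3 that stood apart it was 0.89 ± 0.34 (adjusted p 0.648). The etiolated markers summed to 764 to 4855 CPM with Dex (median 1737) and 730 to 1165 CPM with mock treatment (median 963) in GR-CHA19, and to 841 to 4377 CPM (median 1785) and 787 to 2205 CPM (median 1141) in GR-WRI3. Their part in the values of OLEO3 was not tested. The lines of GR-WRI3 gave 2.77 ± 0.68 in line 10, 1.90 ± 0.81 in line 21, 0.64 ± 0.56 in line 8 and −0.42 ± 0.90 in line 17.

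In GR-WRI3 all 8 tested members had log2 fold changes above 0, from 0.02 to 1.22, where the median of all tested genes was 0.01. CRU2 (0.16) had no usable standard error and was at 0 in all libraries of line 21, so its sign is not read. Not all signs held when libraries were left out. Without the libraries of GR-WRI3 that stood apart OLEO1 was at −0.10 and SESA3 at −0.03, and without line 8 Dex replicate 2 CRU3 was at −0.07. OLEO1 gave 1.55 ± 0.41 in line 8 but −0.87 ± 0.51 in line 17 and −0.63 ± 0.83 in line 21. In GR-LBD16 all 9 tested members had values below 0, from −0.18 to −1.08, where the median of all tested genes was −0.01. The values in GR-LBD16 depended on line 3 mock replicate 1. Without it OLEO2 was at 0.32 ± 0.70, CRA1 at 0.44 ± 0.85, CRU3 at 0.31 ± 0.77 and OLEO4 at 0.01 ± 0.36. CRU2 was at 1.20 ± 1.20 and SESA3 at 0.16 ± 0.72. OLEO3 (−0.64 ± 0.22), SESA1 (−0.26 ± 0.67) and OLEO1 (−0.11 ± 0.30) stayed below 0. In GR-ENAP1, CRA1 had a log2 fold change of 0.99 ± 0.36, at 2.28 to 86.3 CPM with Dex (median 3.37) and 0.616 to 10.6 CPM with mock treatment (median 3.27), and an adjusted p of 0.99999. Line 2 gave 3.44 ± 0.59, line 4 1.24 ± 0.92, line 5 0.08 ± 0.68 and line 1 −0.82 ± 0.64. Without the 2 libraries of GR-ENAP1 that stood apart CRA1 was at 1.68 ± 0.24, with an adjusted p of 0.108.

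**Figure D4:**
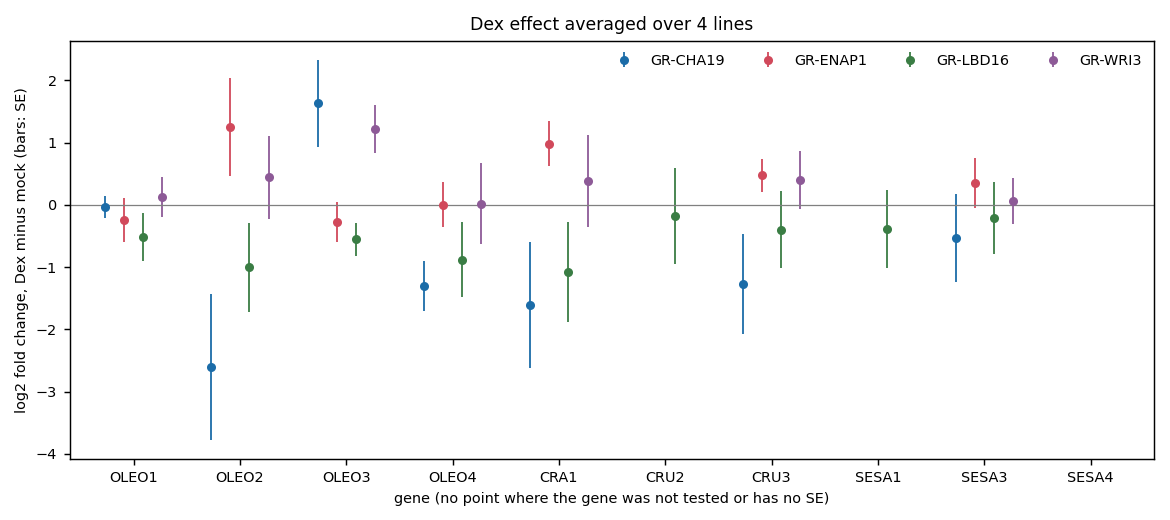
Log2 fold change of Dex against mock treatment averaged over 4 lines (points) with its standard error (bars), from edgeR's quasi-likelihood fit. Genes not tested in a GR-TF, and CRU2 in GR-WRI3, which had no usable standard error, have no point. None of the points passed the adjusted threshold; OLEO3 lies above 0 in GR-CHA19 and GR-WRI3 (1.63 and 1.22), and the widest bars are those of OLEO2 and CRA1 in GR-CHA19 (1.17 and 1.02).

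No member passed the test of the line by treatment term, which asks whether the Dex effect differed between lines, with 0 members and 0.0% of all genes called in each GR-TF. CRA1 in GR-ENAP1 (unadjusted p 0.0021, adjusted p 0.774) and CRU3 in GR-ENAP1 (0.0029 and 0.774) had the lowest values. Unadjusted p-values under 0.05 were found for 1, 2, 2 and 2 members and for 422, 947, 445 and 485 genes in GR-CHA19, GR-ENAP1, GR-LBD16 and GR-WRI3. The line effect of −5.68 ± 1.70 for OLEO2 in line 3 of GR-LBD16 rests on a pair of mock replicates that differed, at 189 and 2.28 CPM. In line 8 of GR-CHA19 OLEO2 was at 12.9 and 0.319 CPM with mock treatment and at 0 in both Dex libraries, so no fold is given.

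Mock libraries of the 4 GR-TFs were compared with the 2 mock libraries of a line summed and the 16 lines as replicates. edgeR's quasi-likelihood F-test called 4 of 9 tested members, OLEO2 (adjusted p 0.0018), CRA1 (0.0221), OLEO4 (0.0293) and OLEO3 (0.0364), where it called 38.4% of 19303 genes, so the share of members called was near that of all genes. The labels do not separate GR-TF from the day or batch of growth, so these cannot be told apart. GR-LBD16 was higher than the mean of the other 3 in OLEO2, CRA1, OLEO4 and OLEO3 (4 of 9, beside 20.7% of all genes called higher and 37.9% called either way). OLEO2 was at 12.3, 15.6, 28.8 and 103 CPM in lines 11, 8, 12 and 3 of GR-LBD16 and between 0.180 and 6.20 CPM in the 12 other lines, with no overlap. Its log2 difference was 4.26 ± 0.60 (SE) with an adjusted p of 0.00071. It was 3.31 ± 0.80 (0.0104) for CRA1, 1.81 ± 0.45 (0.0111) for OLEO4 and 1.15 ± 0.41 (0.0371) for OLEO3, while CRU3, at 1.97 ± 0.81 (0.0634), did not pass.

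The ungerminated seed markers summed to 133 to 4134 CPM (median 435) in the 8 mock libraries of GR-LBD16 beside 111 to 239 CPM in GR-CHA19, 87.2 to 200 CPM in GR-ENAP1 and 100 to 164 CPM in GR-WRI3, and their part in the result was not tested. The etiolated markers summed to 730 to 1165 CPM in the mock libraries of GR-CHA19, 787 to 2205 CPM in GR-WRI3, 1378 to 2745 CPM in GR-ENAP1 and 508 to 3581 CPM in GR-LBD16 (median 2608), and their part in the values of OLEO3 was not tested either. The call for OLEO2 did not need the library that stood farthest apart. Without GR-LBD16 line 3 mock replicate 1 the log2 difference of OLEO2 was 2.87 ± 0.59 with an adjusted p of 0.0078, and that of OLEO3 was 1.26 ± 0.39 (0.0383), while OLEO4 (0.73 ± 0.41, 0.208) and CRA1 (2.48 ± 0.86, 0.0560) no longer passed. The F-test then called 2 members, OLEO2 and OLEO3, among 7032 genes, and without all libraries that stood apart OLEO2 alone of the members, among 8245. Leaving out line 12 of GR-LBD16 also left OLEO2 alone, among 5708 genes, and leaving out line 3 of GR-LBD16 or line 5 of GR-CHA19 left 2 members, among 6473 and 5626 genes. In the Dex libraries of the same lines 0 members and 10 genes were called, with OLEO2 at 3.20 ± 0.74 (adjusted p 0.284) and OLEO3 on the other side of 0, at −0.55 ± 0.63. GR-CHA19 was lower than the mean of the other 3 in OLEO3 (−1.54 ± 0.49, adjusted p 0.0434), the 1 member of 9 called there beside 17.7% of all genes (9.16% of all were higher). No member passed in GR-ENAP1, beside 1.63% of genes (1.13% higher), or in GR-WRI3, beside 0.119% (0.0829% higher).

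**Figure D5:**
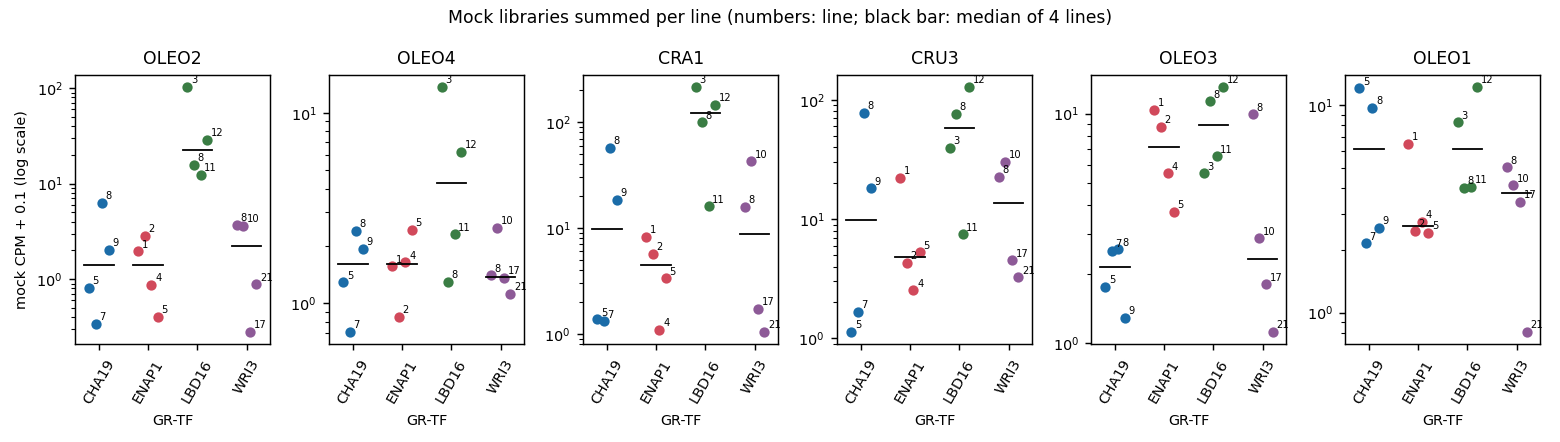
CPM of 6 genes in mock libraries summed per line (points, labelled by line number; log axis with 0.1 added to the CPM; black bars the median of 4 lines) for each GR-TF. All 4 lines of GR-LBD16 lie above the other 12 in OLEO2 (12.3 CPM or more against 6.20 or less), and in the 5 other genes the lines of GR-LBD16 overlap those of another GR-TF.

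Other genes of the same programme were counted in the same way. Of 19 further genes of seed storage, oil bodies and late maturation, 12, 14, 17 and 15 could be tested for Dex in GR-CHA19, GR-ENAP1, GR-LBD16 and GR-WRI3, and 0 passed in any. Their median log2 fold changes were −0.66, 0.50, −1.27 and 0.21. The most abundant were RAB18, an abscisic acid-responsive dehydrin, with 23.2 to 705 CPM, M17 with 0.677 to 1656 CPM and AT3G15670, a late embryogenesis abundant protein, with 0.478 to 1050 CPM, each highest in GR-LBD16 line 3 mock replicate 1. SESA2, the albumin gene between SESA1 and SESA3, was highest in GR-CHA19 line 8 mock replicate 1, at 31.3 CPM. HSD1, a steroleosin of oil bodies, was at 0 in all 64 libraries, which allows a level of up to 0.376 to 1.46 CPM. It has a near-identical copy, so its value is uncertain.

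Regulators of seed maturation were tested in the same way. Of 14 regulators 9 or 10 could be tested, and 0 passed for Dex in any GR-TF, with median log2 fold changes of 0.02, 0.10, −0.09 and 0.00. bZIP25 had a mean of 144 CPM, PKL, a chromatin remodeller that represses embryonic genes in seedlings, of 91.4 CPM and bZIP53, which activates seed maturation genes, of 79.3 CPM. ABI3 had a median of 9.18 CPM, while LEC1 was at 0 in 59 libraries and LEC2 in 56. Of 9 genes of reserve breakdown, all tested, 0 passed in any GR-TF and the medians were −0.26, −0.04, −0.11 and −0.04. CDC48A, an ATPase that extracts oleosins from oil bodies, had a mean of 784 CPM, GAMMA-VPE of 279 CPM and SDP1, a triacylglycerol lipase, of 166 CPM. The 9 ungerminated, 6 etiolated and 3 light-grown markers likewise had 0 calls for Dex in each GR-TF.

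Among 18648 genes with a mean of at least 1 CPM, those most like the summed members over the 64 libraries by Spearman correlation were AT5G35660 (0.90) and AT2G05580 (0.81), both glycine-rich proteins, AT1G05510 (0.87), SESA5 (0.86), LCR67 (0.85), TIP3;1 (0.84), NRT1.7 (0.83), PAP85 (0.82), ATECP31 (0.81) and AT1G54870 (0.80). Of these 10, SESA5, a 2S albumin, TIP3;1, a vacuolar aquaporin of seeds, and PAP85, a cupin, were among the listed seed genes. AT5G35660 was more abundant than every member, with 5.16 to 1060 CPM and a median of 23.8 CPM. The highest value of any member was 395 CPM, for CRA1. Without the libraries that stood apart 9 of the 10 stayed among the first 10.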

How the data were processed

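RNA was measured in 64 libraries of whole seedlings. Per the study's methods, the authors trimmed reads with Trim Galore (0.6.0), mapped them to TAIR10 with STAR (2.7.0f) and deposited raw counts, unnormalized, for every gene in each run; the counting annotation is not given in the sources used here. The counts of the 2 runs were summed, and total counts per library ran from 2059928 to 7968970. CPM is a count scaled to a common library total. Each GR-TF was fitted alone over its 16 libraries in edgeR 4.0.16 (R 4.3.3) with the robust quasi-likelihood fit, TMM factors, filterByExpr on low counts and a mean per line and treatment. Dex was averaged over lines, and lines, the line by treatment term and, on mock counts summed per line, GR-TFs were tested with F-tests, all with Benjamini-Hochberg adjustment over all genes and a threshold of 0.05. A library stood apart when its median correlation of log2 CPM (prior count 2) with the other 15 of its GR-TF lay more than 5 median absolute deviations below the median of the 64. The alternatives were DESeq2 1.42.0, glm.nb (MASS 7.3.60.0.1), other normalization factors, no filter, a replicate block, Dex libraries or single mock replicates, and each library left out. Leaving out each line, or GR-LBD16 line 3 mock replicate 1 alone, in the comparison of GR-TFs was chosen after seeing the data. The pipeline was tested on simulated data.

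All 10 members were named. Of each list the 3 genes with the highest mean CPM, any that passed for Dex and any at 0 in every library were named, as were the 10 genes most like the summed members; others named with the library of the highest sum, and SESA2, were chosen after their values were seen. The members and lists were chosen with earlier results of these data known. Promoters, coordinates and coding identities come from RefSeq's TAIR10.1. Replicates are separate plates of one line, so p-values within a GR-TF measure the spread between plates.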

Additional observations from a re-analysis of the deposited data

Results flagged for a closer look

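In 31 of 88 groups of 8 libraries (a gene or the sum in 1 GR-TF and treatment) the highest library was far from the other 7 by Dixon's criterion. Chance gives about 1 in 20 for normally spread values, and its rate for skewed CPM with zeros was not tested. The groups are not independent, since 1 library can be far in several genes. Values are CPM.

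With mock treatment, GR-CHA19 line 8 replicate 1 was far in the sum (343), OLEO2 (12.9), CRA1 (121), CRU2 (10.6), CRU3 (165), SESA1 (7.10) and SESA4 (0.729). GR-LBD16 line 3 mock replicate 1 was far in OLEO2 (189), OLEO4 (24.2), CRA1 (395) and SESA4 (0.803), and line 12 mock replicate 2 in OLEO3 (22.3) and SESA1 (4.05). In GR-ENAP1, line 1 mock replicate 1 was far in CRU3 (26.4) and the sum (70.8), and line 2 mock replicate 1 in OLEO2 (5.53). In GR-WRI3 it was line 10 mock replicate 1 in CRA1 (59.7).

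With Dex, GR-CHA19 line 9 replicate 2 was far in OLEO2 (1.65) and CRA1 (14.6), and line 7 replicate 1 in OLEO3 (30.03). GR-LBD16 line 12 Dex replicate 1 was far in CRU2 (4.49), SESA1 (2.78), SESA3 (20.95) and SESA4 (4.92). In GR-ENAP1 the far values were OLEO1 in line 5 replicate 1 (5.39), OLEO2 in line 2 replicate 1 (15.5) and CRU3 in line 2 replicate 2 (29.4). In GR-WRI3, line 8 Dex replicate 2 was far in CRA1 (167), CRU3 (147) and the sum (361), and line 10 Dex replicate 2 in SESA4 (3.02).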

How the results depend on the processing

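Of the Dex counts, glm.nb called 6 members in GR-CHA19 (among 5318 genes) and 5 in GR-WRI3 (among 4483). It called 1 in GR-ENAP1 (among 204) and 1 in GR-LBD16 (among 2300). Fitting without the low count filter called 1 in GR-WRI3 (OLEO3, among 1599 genes). For lines of GR-ENAP1 the count was 1 without the filter, among 22 genes. It also moved without the libraries that stood apart, as given above. For line by treatment it was 1 (OLEO3) in GR-CHA19 without the libraries that stood apart, among 947 genes, and 5 in GR-WRI3 without the filter, among 596. Between GR-TFs it was 0 in Dex libraries (among 10 genes), 2 in mock replicate 2 alone (5095) and 1 without the libraries that stood apart (8245). The difference of OLEO3 turned in Dex libraries, to 0.37 for GR-CHA19 and −0.55 for GR-LBD16. The cause was not tested.

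Leaving out single libraries gave Dex counts of 0 to 0 in GR-ENAP1, 0 to 2 in GR-CHA19 (2 without line 7 Dex replicate 2, 8691 genes), 0 to 2 in GR-LBD16 (2 without line 3 mock replicate 2, 8656 genes) and 0 to 1 in GR-WRI3 (1 without line 8 Dex replicate 2, 4816 genes). In these 3 cases a library that stood apart was alone in its line and treatment, and is assumed to vary like the others. Line counts also moved in every GR-TF when single libraries were left out, and the number of all genes called moved with them. Each such fit leaves 1 library in a line and treatment, so these moves are not read as a result about the members. Line by treatment counts ran from 0 to 0 in GR-CHA19 and GR-WRI3, 0 to 3 in GR-ENAP1 (3 without line 1 mock replicate 2, 6712 genes) and 0 to 3 in GR-LBD16 (3 without line 3 mock replicate 2, 9270 genes). Between GR-TFs, leaving out a line or GR-LBD16 line 3 mock replicate 1 gave 1 to 4.

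Replicate numbers were not used as pairs. The correlation of the replicate difference between Dex and mock libraries ran from −0.28 to 0.37 over lines. Whether libraries of the same replicate number shared a day or batch was not tested. With a replicate block the members called were 0 for Dex and line by treatment in every GR-TF and 1, 0, 0 and 7 for lines of GR-CHA19, GR-ENAP1, GR-LBD16 and GR-WRI3, as without it, while all genes called between lines went from 7 to 15 in GR-ENAP1 and from 880 to 495 in GR-WRI3.

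Depth limits CRU2, SESA1 and SESA4 most, with median counts of 1, 1 and 0 per library.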
